A study of Mus musculus with 14 samples.

Results

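The 38 genes described here are those of cholesterol and fatty acid synthesis, taken by gene symbol from the deposited expression values of 14 mouse kidneys. They fall into 5 regulators of the sterol response, 18 enzymes of sterol synthesis, 11 enzymes of fatty acid synthesis, and 4 genes of cholesterol export and storage. All 38 were found among the 21878 genes of the files, and all 38 had an FPKM of at least 0.1 in 3 or more mice, as had 14912 genes in all. FPKM is the number of sequenced fragments of a gene scaled to the length of the transcript and to the size of the library, so that levels of different genes can be set side by side.

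Cells make cholesterol from acetyl-CoA through mevalonate, isoprenoids, squalene and lanosterol, and fatty acids from acetyl-CoA through malonyl-CoA. Both routes are switched on by the SREBP transcription factors, encoded by Srebf1 and Srebf2, which SCAP escorts from the endoplasmic reticulum to the Golgi for cleavage when membrane cholesterol is low and which the INSIG proteins hold back when it is high. When sterols are plentiful, oxysterols activate the nuclear receptor LXR, which induces the exporters ABCA1 and ABCG1 and also Srebf1. In the kidney the proximal tubule uses fatty acids as its main fuel.

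Kidney RNA was sequenced from 14 mice, of which 3 WT and 3 Cfb-/- animals served as controls and 4 of each genotype were made diabetic. Cfb encodes complement factor B, the protease of the alternative pathway, and is deleted in Cfb-/- mice. All mice were male C57BL/6J, aged 8 weeks at the start. Diabetic mice ate a high-fat diet (HFD) with 60% of calories from fat for 4 weeks, were injected with streptozotocin (STZ, a toxin of pancreatic beta cells) at 60 mg/kg on 5 consecutive days and were killed 21 weeks later, whereas control mice ate chow with 10% of calories from fat and were injected with citrate buffer. Diet and toxin therefore came together and cannot be told apart. The labels name the deletion a knockdown, give control mice the treatment of the diabetic mice and give a time of 34 weeks without a starting point, so that the groups rest on the sample titles. Cfb itself reached at most 2.22 FPKM in any Cfb-/- mouse, whereas its lowest level in a WT mouse was 56.7 FPKM.

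Absolute sequencing depth is unknown. From the steps between low values, a read was worth 0.88 to 1.04 times as much as in WT control mouse 1. Only ratios near 1 entered this estimate, so that it cannot show a large difference in depth between mice. The tissue was kidney by its markers, since the 8 proximal tubule markers summed to 1910 to 7600 FPKM in every mouse, and the 7 markers of the neighbouring adrenal cortex summed to at most 0.748 FPKM. FPKM values summed to 330246 to 364953 in diabetic mice and to 372884 to 488196 in control mice, and the most abundant gene took 2.49% to 4.6% of the sum in diabetic mice and 10.2% to 13.9% in control mice. Across all tested genes the median difference between diabetic and control mice was above 0 on the log2 scale, at 0.29 in WT mice and 0.22 in Cfb-/- mice. With median-ratio scaling, which sets the typical gene equal between mice, these medians became 0.03 and -0.01. The differences of the lipid genes are given as deposited and relative to the median of all genes.

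The level of these genes in WT control kidneys spanned from Me1, the malic enzyme that supplies NADPH for lipid synthesis, at 163 ± 18.6 FPKM (SD, n = 3), to Abcg1 at 1.15 ± 0.129 FPKM (SD, n = 3). Hmgcs1, the cytosolic HMG-CoA synthase, was second at 138 ± 40.9 FPKM (SD, n = 3) and Ebp, an isomerase late in sterol synthesis, came next at 55.2 ± 7.51 FPKM (SD, n = 3). Fasn, fatty acid synthase, and both acetyl-CoA carboxylases stood low, with 6.41 ± 1.25 FPKM for Fasn, 2.26 ± 0.282 FPKM for Acaca and 2.01 ± 0.262 FPKM for Acacb (SD, n = 3 each). Of the 37 pairs of neighbours in this order, 33 overlapped in the range of their 3 mice, so that the order holds for distant members more than for adjacent ones.

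Diabetes was examined first, by comparing diabetic with control mice within each genotype. Sterol synthesis genes were lower in diabetic kidneys of both genotypes, with 8 of 18 called lower in WT mice, 10 of 18 in Cfb-/- mice and none called higher. Of the 4 export and storage genes, 3 were called higher in WT mice and 1, near the share of all genes, in Cfb-/- mice. None of them was called lower. Of the 11 fatty acid synthesis genes, 2 were called higher and 3 lower in WT mice, and 2 higher and 5 lower in Cfb-/- mice. Among all 38 members, 12 were called lower and 6 higher in WT diabetic mice, where 9.97% of all tested genes were called lower and 36.2% higher. In Cfb-/- diabetic mice 17 members were called lower and 3 higher, where 6.4% of all tested genes were called lower and 27.4% higher. A call is a Benjamini-Hochberg adjusted p under 0.05 over all tested genes from limma, a linear model fitted here to log2(FPKM + 0.1) in all 14 mice. With median-ratio scaling the split became 24 lower and 4 higher in WT mice and 21 lower and 1 higher in Cfb-/- mice. Over all 14912 tested genes the split also moved, from 1487 lower and 5392 higher to 3347 and 3391 in WT mice. In Cfb-/- mice it moved from 955 and 4083 to 2101 and 2761. With the adipocyte score of each mouse, the mean log2(FPKM + 0.1) of 8 fat cell markers, as a covariate, 5 members were called in WT mice (3 higher and 2 lower) and 18 in Cfb-/- mice. Calls over all tested genes fell as well, to 2498 higher and 655 lower in WT mice and to 3533 and 794 in Cfb-/- mice. The score did not overlap between WT diabetic mice (-0.484 to 0.768) and WT control mice (-2.38 to -1.93). This fit therefore cannot tell fat cell RNA from diabetes in WT mice. Relative to the median of all tested genes, the median sterol synthesis gene stood at -0.61 in WT mice and -0.59 in Cfb-/- mice on the log2 scale, the median fatty acid synthesis gene at -0.08 and -0.21, and the median export and storage gene at 0.59 and 0.30. In bulk kidney RNA, fewer cells of a type and less RNA per cell cannot be told apart.

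**Figure D1:**
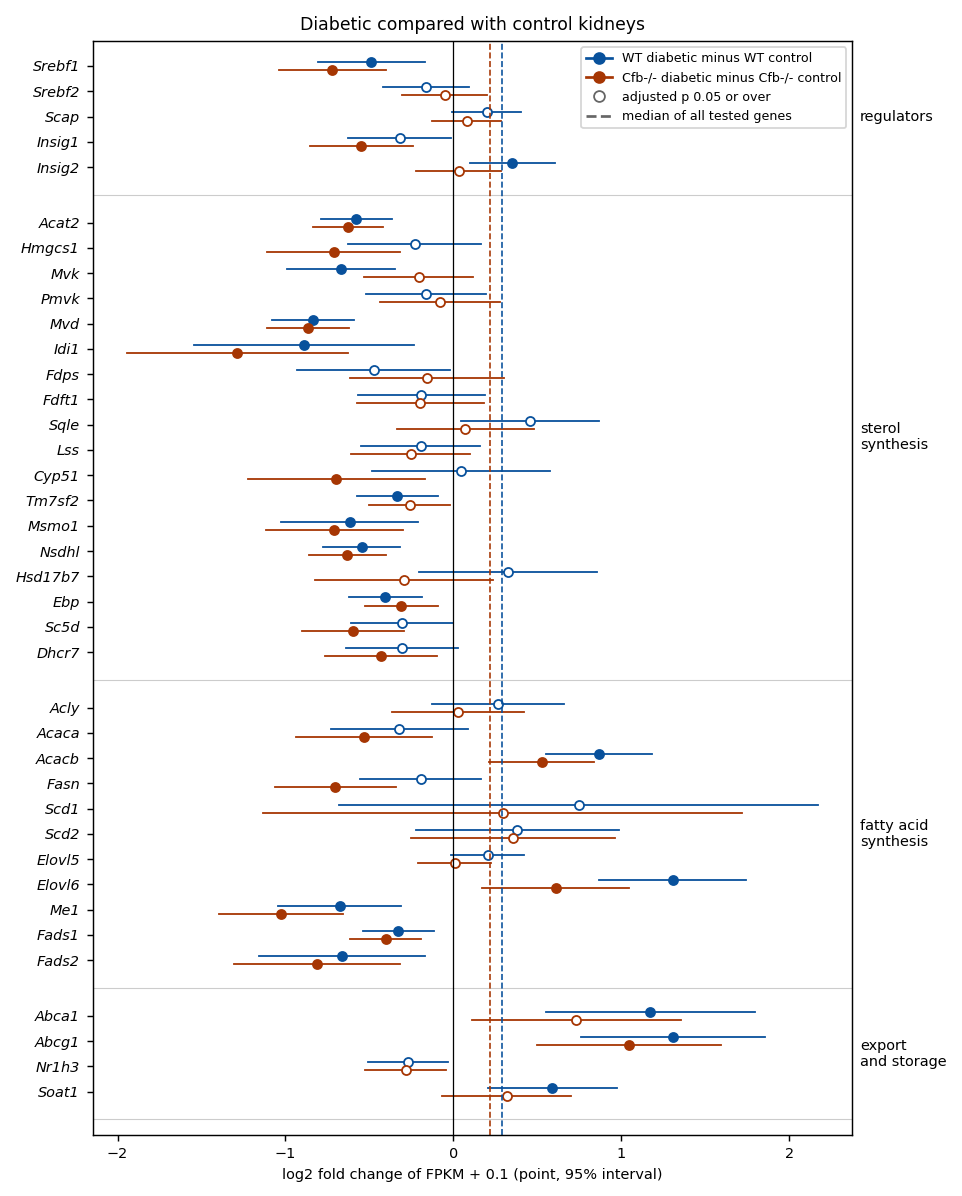
Log2 fold change of FPKM + 0.1 (x axis) of the 38 members (rows, grouped by role), in WT mice (blue) and Cfb-/- mice (brown), with 95% intervals from limma and the median of all tested genes as dashed lines. Filled points have an adjusted p under 0.05, and the sterol synthesis rows lie mostly to the left of 0, whereas Abca1 and Abcg1 lie to the right in both genotypes.

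The calls in the 2 genotypes rest on different mice. In both genotypes 10 of 38 members were called lower, namely Srebf1, Acat2, Mvd, Idi1, Msmo1, Nsdhl, Ebp, Me1, Fads1 and Fads2, and 3 were called higher, namely Acacb, Elovl6 and Abcg1. The sign of the fold change was the same in both genotypes for 36 of 38 members. Calls in both genotypes and shared signs were not counted over all tested genes. These counts are therefore not shown to be particular to the members. Another 13 members were called in neither genotype. Leaving out 1 mouse at a time ended the call of 7 members in WT mice (Srebf1, Insig2, Idi1, Tm7sf2, Msmo1, Fads2 and Soat1) and of 8 in Cfb-/- mice (Insig1, Cyp51, Ebp, Dhcr7, Acaca, Acacb, Elovl6 and Fads2), in each case without a change of direction.

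Among the regulators, Srebf1, which encodes SREBP-1 and is itself a target of LXR and insulin, was lower in diabetic mice of both genotypes. It was at 10.2, 7.13 and 10.0 FPKM in WT control mice and at 6.40, 6.85, 6.04 and 6.26 FPKM in WT diabetic mice. In the Cfb-/- genotype it was at 12.3, 12.6 and 14.95 FPKM in controls and at 9.56, 8.60, 6.43 and 7.72 FPKM in diabetic mice. Every diabetic mouse was thus below every control mouse of its genotype. The log2 fold change was -0.49 ± 0.15 (SE; limma, adjusted p = 0.0161) in WT mice and -0.72 ± 0.15 (adjusted p = 0.00191) in Cfb-/- mice.

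Srebf2, which encodes SREBP-2, the main activator of sterol synthesis, was not called in either genotype. Its levels were 17.4, 14.5 and 15.6 FPKM in WT control mice against 15.6, 14.8, 11.0 and 15.5 FPKM in WT diabetic mice, and 18.5, 17.3 and 17.2 FPKM in Cfb-/- control mice against 18.0, 17.5, 16.4 and 16.2 FPKM in Cfb-/- diabetic mice. The groups overlapped in each genotype, and the 95% intervals of the log2 fold change ran from -0.42 to 0.09 in WT mice and from -0.31 to 0.20 in Cfb-/- mice. With median-ratio scaling it was called lower in both, at -0.44 and -0.29. Scap, the escort of the SREBPs, was at 17.7, 17.2 and 16.6 FPKM in WT control mice, 17.7, 22.3, 20.3 and 18.8 FPKM in WT diabetic mice, 19.5, 17.0 and 20.5 FPKM in Cfb-/- control mice and 19.1, 19.7, 21.1 and 20.1 FPKM in Cfb-/- diabetic mice. It was not called, and its fold change of 0.20 in WT mice and 0.08 in Cfb-/- mice turned to -0.08 and -0.16 with median-ratio scaling.

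Insig1, which holds the SREBP escort in the endoplasmic reticulum and is itself switched on by SREBP, was at 21.3, 14.2 and 14.3 FPKM in WT control mice and at 13.6, 13.9, 11.4 and 13.4 FPKM in WT diabetic mice. In the knockout animals it was at 23.5, 26.15 and 31.2 FPKM in controls and at 20.2, 17.1, 18.8 and 17.0 FPKM in diabetic mice. No diabetic mouse overlapped with the control mice of its genotype. The fall of 0.55 ± 0.14 on the log2 scale passed the test in Cfb-/- mice (SE; limma, adjusted p = 0.00894), while the value of -0.32 ± 0.14 in WT mice did not (adjusted p = 0.0810). Insig2, its partner that does not depend on SREBP, was at 13.2, 9.18 and 10.9 FPKM in WT control mice and at 13.3, 14.7, 13.7 and 14.5 FPKM in WT diabetic mice, which was called higher (0.35 ± 0.12, SE; limma, adjusted p = 0.0259) but not with median-ratio scaling (0.07, adjusted p = 0.615). In Cfb-/- mice it was at 14, 12.99 and 13.2 FPKM in controls and at 14.03, 11.8, 14.6 and 14.6 FPKM in diabetic mice, with overlap of the groups and a fold change of 0.03.

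Sterol synthesis is shown with promoter sequence because more of its genes fell than of any other branch and most of their promoters share motifs. NF-Y, which binds CCAAT, and Sp1, which binds GGGCGG, are known partners of SREBP at sterol gene promoters, and SREBP itself binds sterol regulatory elements such as TCACNCCAC. The 250 bases before each transcription start were searched on both strands in RefSeq promoter sequence of GRCm38.p6, which held 31 of the 38 members and 15 of the 18 sterol synthesis genes. CCAAT was found for 14 of these 15 genes and GGGCGG for 14 of 15, whereas 37.5% and 35.4% of all 27025 genes with a window held them. Acat2 was the sterol gene without CCAAT and Pmvk the one without GGGCGG. Both were also common among the regulators, with CCAAT for 4 of 5 and GGGCGG for 5 of 5. Some genes had several windows, and a match in any of them counted. By window, CCAAT was in 5 of 10 for the regulators and 14 of 18 for sterol synthesis, against 33.8% of all 32851 windows. GGGCGG was in 7 of 10 and 15 of 18, against 32.7%. CCAAT was found for 4 of 8 fatty acid synthesis genes and GGGCGG for 3 of 8. Each was found for 1 of 3 export and storage genes. TCACNCCAC was found for Hmgcs1 alone, 1 of 31 members, against 1.22% of all genes. The E-box CACGTG was found for 7 of 31 members, against 6.86% of all genes. A match gives the letters only and does not show that a factor bound. The stretches below end at the base before the transcription start and run 5′ to 3′ on the strand of the gene, with matches to CCAAT (or ATTGG, its reverse complement) and, in Hmgcs1, TCACNCCAC in capitals. They belong to 5 of the 6 sterol genes that were called lower in both genotypes, and to Hmgcs1 for its sterol regulatory element. The remaining gene of the 6, Acat2, had no CCAAT in the bases searched and is not shown.
Hmgcs1, chr13:119690201-119690350, plus strand: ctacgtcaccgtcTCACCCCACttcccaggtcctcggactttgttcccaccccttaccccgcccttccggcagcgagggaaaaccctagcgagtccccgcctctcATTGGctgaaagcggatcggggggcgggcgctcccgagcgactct
Mvd, chr8:122443423-122443552, minus strand: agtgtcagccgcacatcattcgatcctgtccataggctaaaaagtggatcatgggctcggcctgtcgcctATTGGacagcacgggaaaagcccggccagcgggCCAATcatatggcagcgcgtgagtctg
Idi1, chr13:8885476-8885605, plus strand: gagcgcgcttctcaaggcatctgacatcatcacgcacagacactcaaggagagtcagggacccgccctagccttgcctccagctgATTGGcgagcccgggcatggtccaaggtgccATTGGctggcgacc
Msmo1, chr8:64733579-64733708, minus strand: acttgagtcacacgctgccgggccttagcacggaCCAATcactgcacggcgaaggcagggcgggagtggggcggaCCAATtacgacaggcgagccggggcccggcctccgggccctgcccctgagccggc
Nsdhl, chrX:72918391-72918520, plus strand: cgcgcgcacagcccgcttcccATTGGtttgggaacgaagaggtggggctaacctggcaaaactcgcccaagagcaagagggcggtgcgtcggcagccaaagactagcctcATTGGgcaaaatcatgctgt
Ebp, chrX:8193513-8193642, minus strand: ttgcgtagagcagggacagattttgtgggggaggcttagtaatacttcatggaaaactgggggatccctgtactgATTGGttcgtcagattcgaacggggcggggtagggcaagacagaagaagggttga

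Idi1, the isomerase that interconverts the 2 isoprenoid building blocks, had the largest difference of the sterol synthesis genes in WT mice. Its levels were 18.7, 8.34 and 9.84 FPKM in WT control mice, which overlapped with 9.18, 7.29, 4.62 and 4.71 FPKM in WT diabetic mice. Levels in Cfb-/- mice were 22.02, 18.7 and 27.8 FPKM in controls and 6.999, 7.12, 12.9 and 10.97 FPKM in diabetic mice, with no overlap. The fold change was -0.89 ± 0.31 on the log2 scale in WT mice (SE; limma, adjusted p = 0.0292) and -1.29 ± 0.31 in Cfb-/- mice (adjusted p = 0.00501), which is 0.410 of the control level. WT control mouse 1 carried much of the former, since without it the value was -0.54 (adjusted p = 0.144).

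Mvd, the decarboxylase that makes isopentenyl diphosphate and whose promoter above holds a pair of CCAAT boxes, fell in both genotypes. It was at 30.1, 39.9 and 35.7 FPKM in WT control mice, 18.1, 20.4, 20.5 and 19.4 FPKM in WT diabetic mice, 29.5, 39.5 and 35.2 FPKM in Cfb-/- control mice and 18.0, 18.6, 20.3 and 18.6 FPKM in Cfb-/- diabetic mice. The groups did not overlap in either genotype, and diabetic mice were at 0.560 and 0.548 of the control level. The fold changes of -0.84 ± 0.11 and -0.87 ± 0.11 on the log2 scale passed the test (SE; limma, adjusted p = 7.75e-05 and 6.49e-05).

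Mvk, mevalonate kinase, was at 4.89, 7.84 and 6.26 FPKM in WT control mice and at 3.91, 4.14, 3.39 and 4.11 FPKM in WT diabetic mice, without overlap. It fell by 0.67 ± 0.15 on the log2 scale (SE; limma, adjusted p = 0.00289). In the Cfb-/- genotype it was at 5.63, 5.88 and 7.41 FPKM in controls and at 5.14, 5.81, 5.23 and 5.48 FPKM in diabetic mice, which overlapped (-0.21 ± 0.15, adjusted p = 0.313). The interaction of genotype and diabetes for Mvk is given below.

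The other sterol genes called lower in both genotypes were Acat2, the cytosolic thiolase that starts the pathway, and Msmo1, Nsdhl and Ebp, which process the sterol ring system. Acat2 fell from 46.7 ± 0.773 to 31.3 ± 1.80 FPKM in WT mice and from 42.0 ± 3.85 to 27.2 ± 3.01 FPKM in Cfb-/- mice (SD, n = 3 and 4). Fragments of Acat2 and of its close paralog Acat3 (5.27 to 9.89 FPKM) may have been split uncertainly by the authors' counting. Msmo1 fell by 0.62 ± 0.19 and 0.71 ± 0.19, Nsdhl by 0.55 ± 0.11 and 0.63 ± 0.11, and Ebp by 0.41 ± 0.10 and 0.31 ± 0.10 on the log2 scale (SE; limma, WT then Cfb-/- mice). Without WT diabetic mouse 3 the value for Msmo1 in WT mice was -0.40. Tm7sf2, a sterol reductase, was called lower in WT mice alone (-0.34 ± 0.11, adjusted p = 0.0261), and not without WT control mouse 2 (-0.22, adjusted p = 0.134). Its interaction of genotype and diabetes was not called.

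Another 4 sterol genes were called lower in Cfb-/- mice and not in WT mice, namely Hmgcs1, Cyp51, Sc5d and Dhcr7. Hmgcs1 went from 177 ± 16.6 to 109 ± 22.9 FPKM in Cfb-/- mice (-0.71 ± 0.19, SE; limma, adjusted p = 0.00856), against 138 ± 40.9 and 115 ± 13.0 FPKM in WT mice (-0.23 ± 0.19, adjusted p = 0.320). Cyp51, the lanosterol demethylase, went from 54.2 ± 19.0 to 32.4 ± 5.10 FPKM in Cfb-/- mice (-0.70 ± 0.25, adjusted p = 0.0425), against 31.8 ± 11.8 and 31.1 ± 2.75 FPKM in WT mice (0.04 ± 0.25). Without Cfb-/- control mouse 3 the value for Cyp51 in Cfb-/- mice was -0.43 (adjusted p = 0.208). No interaction of genotype and diabetes was called for these genes. Sc5d and Dhcr7, which act last in the pathway, fell by 0.60 ± 0.14 and 0.43 ± 0.16 on the log2 scale in Cfb-/- mice. Another 5 sterol genes were not called in either genotype, among them the kinase Pmvk, the prenyl synthase Fdps and the squalene synthase Fdft1. In WT control, WT diabetic, Cfb-/- control and Cfb-/- diabetic mice, in this order, the means (± SD, n = 3, 4, 3 and 4) put Pmvk at 6.47 ± 1.04, 5.78 ± 0.937, 6.31 ± 0.112 and 6.06 ± 1.22 FPKM, Fdps at 17.1 ± 2.8, 12.4 ± 2.53, 18 ± 4.66 and 16.1 ± 3.5 FPKM, and Fdft1 at 3.83 ± 0.264, 3.4 ± 0.738, 4.55 ± 0.652 and 3.96 ± 0.579 FPKM. In the same order they put the lanosterol synthase Lss at 3.36 ± 0.606, 2.91 ± 0.444, 4.23 ± 0.73 and 3.5 ± 0.277 FPKM, and the reductase Hsd17b7 at 3.8 ± 1.65, 4.6 ± 0.9754, 6.73 ± 0.874 and 5.55 ± 1.29 FPKM. Sqle, squalene epoxidase, a rate-limiting step, was at 25.0 ± 7.80 and 33.4 ± 4.33 FPKM in WT control and diabetic mice (0.46 ± 0.19, limma, adjusted p = 0.0641) and at 35.4 ± 7.18 and 37.0 ± 4.92 FPKM in Cfb-/- mice (0.07 ± 0.19).

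**Figure D2:**
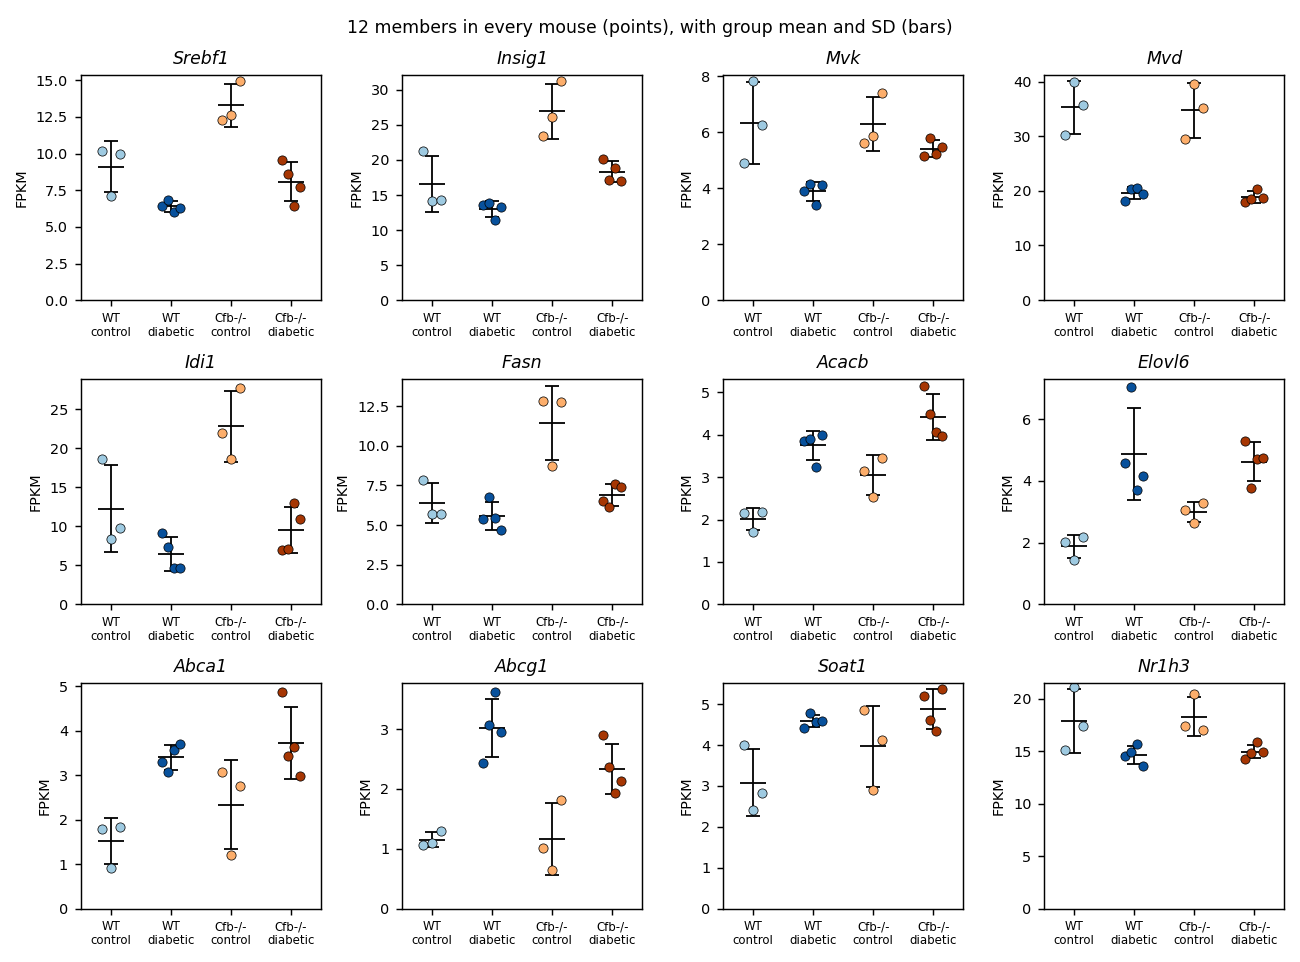
FPKM (y axis, from 0) of 12 members in each mouse (points), with the group mean and SD (bars), for 3 WT control, 4 WT diabetic, 3 Cfb-/- control and 4 Cfb-/- diabetic mice. Mvd lies at 18.0 to 20.5 FPKM in all diabetic mice and at 29.5 FPKM or more in all control mice, and Abcg1 is higher in all diabetic than in all control mice.

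Among the fatty acid synthesis genes, Elovl6, which elongates palmitate, and Acacb, the mitochondrial acetyl-CoA carboxylase whose product restrains fatty acid oxidation, rose in both genotypes. Elovl6 was at 2.01, 1.45 and 2.18 FPKM in WT control mice and at 4.58, 7.03, 3.71 and 4.16 FPKM in WT diabetic mice. In the knockout animals it was at 3.05, 2.64 and 3.27 FPKM in controls and at 5.31, 3.76, 4.71 and 4.74 FPKM in diabetic mice. All diabetic mice were above all control mice, whatever the genotype. The rise was 1.31 ± 0.20 on the log2 scale in WT mice (SE; limma, adjusted p = 0.000221) and 0.61 ± 0.20 in Cfb-/- mice (adjusted p = 0.0328), the latter not called with median-ratio scaling (0.37, adjusted p = 0.139).

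Acacb was at 2.15, 1.71 and 2.18 FPKM in WT control mice and at 3.84, 3.91, 3.25 and 4.00 FPKM in WT diabetic mice. In Cfb-/- mice it was at 3.14, 2.54 and 3.46 FPKM in controls and at 5.15, 4.48, 4.05 and 3.97 FPKM in diabetic mice. The groups did not overlap within a genotype, and the rise was 0.87 ± 0.15 in WT mice (SE; limma, adjusted p = 0.000378) and 0.52 ± 0.15 in Cfb-/- mice (adjusted p = 0.0129, and 0.0646 with median-ratio scaling). Acaca, the cytosolic carboxylase that supplies fatty acid synthase, fell in Cfb-/- mice. It was at 3.03 ± 0.643 and 2.06 ± 0.405 FPKM in Cfb-/- control and diabetic mice (-0.53 ± 0.19, limma, adjusted p = 0.0433) and at 2.26 ± 0.282 and 1.79 ± 0.253 FPKM in WT mice (-0.32 ± 0.19, adjusted p = 0.177).

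Fasn was at 7.85, 5.69 and 5.68 FPKM in WT control mice and at 5.35, 6.77, 5.43 and 4.71 FPKM in WT diabetic mice, with overlap (-0.20 ± 0.17). In the Cfb-/- genotype it was at 12.8, 8.74 and 12.8 FPKM in controls and at 6.54, 6.13, 7.60 and 7.38 FPKM in diabetic mice. These groups did not overlap, and Fasn fell by 0.70 ± 0.17 on the log2 scale (SE; limma, adjusted p = 0.00503). Scd1, the desaturase that makes oleate, was next in size after Elovl6 and Acacb in WT mice, at 0.75 ± 0.67 (limma, adjusted p = 0.370), and was not called. Its levels were 40.4, 23.5 and 3.69 FPKM in WT control mice, 21.1, 40.1, 32.2 and 15.99 FPKM in WT diabetic mice, 37.8, 14.4 and 64.0 FPKM in Cfb-/- control mice and 36.3, 27.2, 37.7 and 69.4 FPKM in Cfb-/- diabetic mice. The groups overlapped in each genotype. WT control mouse 3 alone set its sign in WT mice, since without this mouse the value was -0.26. Scd1 (chr19:44394450-44407709) and its paralog Scd2 (chr19:44293676-44306864) lie on the same chromosome (GRCm38.p6) and are alike in sequence, so that fragments may have been split between them.

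Me1 and the desaturases of polyunsaturated fatty acids, Fads1 and Fads2, fell in both genotypes. Me1 went from 163 ± 18.6 to 102 ± 6.57 FPKM in WT mice and from 186 ± 22.3 to 93.2 ± 25.3 FPKM in Cfb-/- mice (SD, n = 3 and 4), a fall of 0.68 ± 0.17 and 1.03 ± 0.17 on the log2 scale (SE; limma, adjusted p = 0.00585 and 0.000409). Fads1 fell by 0.33 ± 0.10 and 0.40 ± 0.10, and Fads2 by 0.66 ± 0.23 and 0.81 ± 0.23. The 2 genes lie near each other, at chr19:10182877-10196874 and chr19:10062765-10101503. Acly, which makes cytosolic acetyl-CoA, Scd2 and the elongase Elovl5 were not called in either genotype. Their means in WT control, WT diabetic, Cfb-/- control and Cfb-/- diabetic mice (± SD, n = 3, 4, 3 and 4) put Acly at 28.2 ± 5.94, 33.8 ± 6.12, 32.6 ± 2.79 and 33.8 ± 7.4 FPKM, Scd2 at 25 ± 8.97, 31.3 ± 5.38, 31.4 ± 5.94 and 41.7 ± 15.9 FPKM, and Elovl5 at 17.6 ± 2.05, 20.2 ± 1.5, 20.3 ± 1.69 and 20.4 ± 1.41 FPKM.

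Of the export and storage genes, Abcg1, which passes cholesterol to HDL, was higher in every diabetic mouse than in every control mouse. It was at 1.06, 1.096 and 1.299 FPKM in WT control mice, 2.43, 3.06, 3.62 and 2.95 FPKM in WT diabetic mice, 1.007, 0.647 and 1.82 FPKM in Cfb-/- control mice and 2.90, 2.37, 1.93 and 2.13 FPKM in Cfb-/- diabetic mice. The rise was 1.31 ± 0.26 on the log2 scale in WT mice (SE; limma, adjusted p = 0.00110) and 1.04 ± 0.26 in Cfb-/- mice (adjusted p = 0.00592, and 0.108 after quantile normalization).

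Abca1, which passes cholesterol to lipid-poor apolipoprotein A-I, was at 1.79, 0.922 and 1.83 FPKM in WT control mice and at 3.29, 3.07, 3.57 and 3.69 FPKM in WT diabetic mice. It rose by 1.17 ± 0.29 on the log2 scale (SE; limma, adjusted p = 0.00517). In the knockout animals it was at 3.06, 1.196 and 2.75 FPKM in controls and at 4.88, 3.42, 3.63 and 2.98 FPKM in diabetic mice, with overlap of 1 control mouse. That difference of 0.73 ± 0.29 was not called (adjusted p = 0.0663), and it ranged from 0.33 without Cfb-/- control mouse 2 (adjusted p = 0.367) to 0.97 without Cfb-/- control mouse 1 (adjusted p = 0.0344).

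Soat1, which esterifies cholesterol for storage, was at 3.99, 2.42 and 2.83 FPKM in WT control mice and at 4.43, 4.77, 4.58 and 4.59 FPKM in WT diabetic mice. It rose by 0.59 ± 0.18 (SE; limma, adjusted p = 0.0160), which was not called with median-ratio scaling (0.32, adjusted p = 0.108). In Cfb-/- mice it was at 4.86, 2.91 and 4.13 FPKM in controls and at 5.20, 4.60, 4.35 and 5.37 FPKM in diabetic mice, with overlap (0.32 ± 0.18). Nr1h3, which encodes LXR-alpha, was at 15.1, 21.1 and 17.4 FPKM in WT control mice, 14.5, 14.9, 15.7 and 13.6 FPKM in WT diabetic mice, 17.4, 20.4 and 17.0 FPKM in Cfb-/- control mice and 14.3, 14.8, 15.8 and 14.9 FPKM in Cfb-/- diabetic mice. While Abcg1, a target of LXR, rose in both genotypes, Nr1h3 itself was at -0.27 ± 0.11 and -0.28 ± 0.11 on the log2 scale (adjusted p = 0.0596 and 0.0635), and with median-ratio scaling it was called lower in both genotypes (-0.55 and -0.53).

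Other genes of sterol handling were read beside these, from a list of 17 of which 15 were tested. In WT diabetic mice 5 were called higher and 1 lower, and in Cfb-/- diabetic mice 4 higher and 3 lower, where 36.2% and 27.4% of all tested genes were called higher in WT and Cfb-/- mice and 9.97% and 6.4% lower. The shares called higher were thus near those of all genes. Ch25h, which makes the oxysterol 25-hydroxycholesterol, rose by 2.19 ± 0.27 and 1.82 ± 0.27 on the log2 scale (SE; limma, WT then Cfb-/- mice). Scarb1, the HDL receptor, rose by 1.12 ± 0.13 and 0.97 ± 0.13, and Npc1, which carries cholesterol out of lysosomes, by 0.44 ± 0.12 and 0.37 ± 0.12, neither called with median-ratio scaling (adjusted p = 0.229 and 0.374).

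From a list of 28 other genes of fatty acid metabolism, 27 were tested, of which 8 were called higher and 8 lower in WT diabetic mice and 3 higher and 10 lower in Cfb-/- diabetic mice, against the same 36.2% higher and 9.97% lower of all tested genes in WT mice and 27.4% higher and 6.4% lower in Cfb-/- mice. Acsl5, which activates fatty acids, rose by 0.97 ± 0.12 and 0.90 ± 0.12 (SE; limma, WT then Cfb-/- mice), and G6pdx, the first enzyme of the NADPH-making pentose phosphate route, rose by 0.68 ± 0.13 and 0.58 ± 0.13, the latter not called with median-ratio scaling (adjusted p = 0.0804). Hacd2, a dehydratase of fatty acid elongation, fell by 0.70 ± 0.12 and 0.89 ± 0.12. Dgat2, which makes triglyceride, fell by 0.64 ± 0.13 and 0.48 ± 0.13.

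Markers of kidney cell types moved with diabetes as well. Proximal tubule markers summed to 6430 to 7600 FPKM in WT control mice against 2520 to 3090 FPKM in WT diabetic mice, and to 5160 to 6020 FPKM in Cfb-/- control mice against 1910 to 3020 FPKM in Cfb-/- diabetic mice, with 6 and 7 of the 8 called lower. The 7 macrophage markers summed to 60.8 to 79.3 FPKM in WT control mice against 237 to 344 FPKM in WT diabetic mice, and to 50.3 to 84.0 FPKM in Cfb-/- control mice against 201 to 371 FPKM in Cfb-/- diabetic mice, with 7 and 6 called higher. Of the 4 thick limb markers, 2 were called higher in WT and 1 in Cfb-/- diabetic mice, against 36.2% and 27.4% of all tested genes. No marker of the thick limb, distal tubule or collecting duct was called lower in either genotype. Proximal tubule marker RNA was thus lower and macrophage marker RNA higher in these diabetic kidneys. In the same kidneys 8 and 10 of 18 sterol synthesis genes were called lower and Abcg1 higher. The part of proximal tubule or macrophage RNA in those differences was not tested.

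Within groups, some members varied with proximal tubule markers and others against them. Over all 14 mice, after subtraction of group means, the Pearson correlation with the mean of the proximal tubule markers was 0.757 for Acat2, 0.709 for Me1, 0.662 for Idi1, 0.614 for Nsdhl and 0.610 for Fads2, and it was -0.846 for Pmvk and -0.513 for Scd2. With median-ratio scaling these became 0.775, 0.764, 0.654, 0.708, 0.643, -0.612 and -0.681. The other genes called lower in both genotypes did not share the high values on the deposited scale. Their correlations were 0.1 for Mvd, -0.0502 for Msmo1, -0.138 for Ebp, -0.292 for Fads1 and -0.424 for Srebf1. Acly and Hsd17b7, called in neither genotype, were at 0.607 and 0.59. All these correlations are descriptions over mice that share library composition between genes. Insig1 was instead most like Elovl5 (0.728), Sqle (0.702), Hsd17b7 (0.678) and Hmgcs1 (0.668) in its deviations on the deposited scale, and most like Sqle (0.768), Cyp51 (0.696), Hsd17b7 (0.667) and Hmgcs1 (0.642) with median-ratio scaling. Its correlation with the proximal tubule markers was -0.0661.

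**Figure D3:**
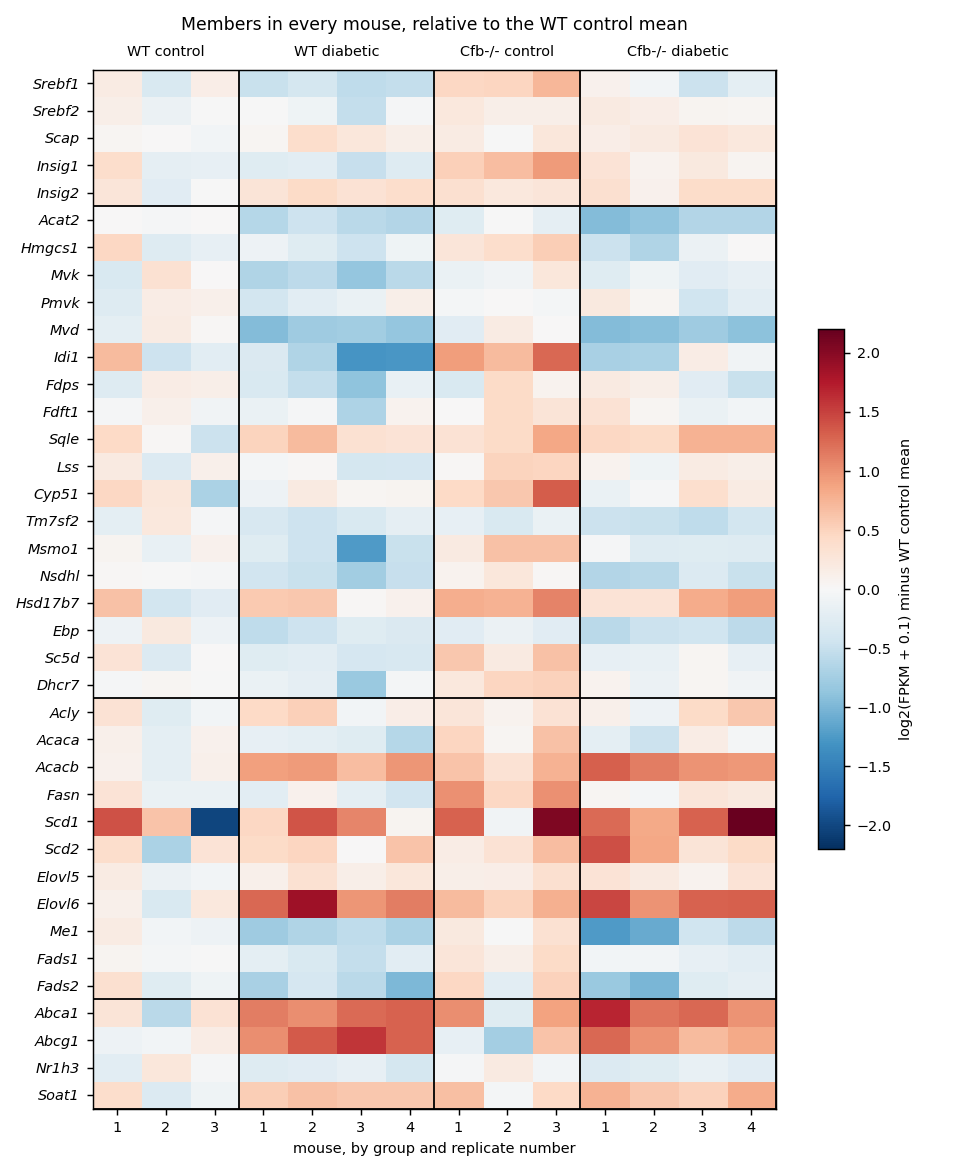
Log2(FPKM + 0.1) of the 38 members (rows, boxes by role) in each of the 14 mice (columns), minus the mean of the 3 WT control mice. Values range from -2.02 to 2.18, both in Scd1, and the columns of Cfb-/- control mice are the reddest in the sterol synthesis block.

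Deletion of Cfb was then examined within diabetic and within control mice. No member had an adjusted p under 0.05 in either comparison, where 0.00671% of all tested genes, 1 gene, was called in each, which was Cfb itself. The members tended to be higher in Cfb-/- than in WT mice before adjustment. In control mice 32 of 38 were above 0, and 14 were higher and none lower at an unadjusted p under 0.05, against 9.86% higher and 7.67% lower of all tested genes. In diabetic mice 28 of 38 were above 0, and 5 were higher and 1 lower at that threshold, against 1.33% higher and 1.67% lower of all tested genes. With the adipocyte score as a covariate, 18 of 38 were above 0 in diabetic mice, and none was higher and 1 lower at that threshold. Of all 14912 tested genes, 130 were then higher and 136 lower. With median-ratio scaling, 9 members were higher and 1 lower in control mice, against 1057 higher and 1683 lower of all 14912 tested genes. The median member stood at 0.31 in control mice and 0.13 in diabetic mice on the log2 scale, against 0.06 and 0.04 for all tested genes. These counts failed the correction over all genes, and members that share regulation are not independent of each other.

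In control mice the smallest unadjusted p belonged to Insig1, Fasn and Acacb. Insig1 ranged over 14.2 to 21.3 FPKM in WT animals and 23.5 to 31.2 FPKM in Cfb-/- animals, without overlap, a difference of 0.71 ± 0.15 (SE; limma, adjusted p = 0.190). Fasn ranged over 5.68 to 7.85 FPKM in WT animals and 8.74 to 12.8 FPKM in Cfb-/- animals, also without overlap (0.82 ± 0.18, adjusted p = 0.193). Acacb was at 1.71 to 2.18 FPKM and at 2.54 to 3.46 FPKM (0.57 ± 0.16, adjusted p = 0.239). Each was higher in 3 of 3 Cfb-/- control mice than in any WT control mouse. In all, 9 members were higher and 1, Ebp, lower in every Cfb-/- control mouse than in every WT control mouse, against 6.67% higher and 7.12% lower of all tested genes.

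The control comparison depended on WT control mouse 1, in which several members stood near the Cfb-/- level, such as Idi1 at 18.7 FPKM, Hsd17b7 at 5.70 FPKM and Insig1 at 21.3 FPKM. Without this mouse 11 of 38 members had an adjusted p under 0.05 in limma, as had 6.34% of all tested genes in the higher and 5.14% in the lower direction. Among these 11, Insig1 was then at 0.90 (adjusted p = 0.0184), Fasn at 0.97 (0.0228), Hsd17b7 at 1.21 (0.0228), Idi1 at 1.30 (0.0309), Cyp51 at 1.02 (0.0352) and Srebf1 at 0.64 (0.0355). Sc5d was at 0.63 (limma, adjusted p = 0.03005), Sqle at 0.75 (0.0326), Insig2 at 0.42 (0.0398) and Acacb at 0.62 (0.0408). All genes named here were higher in Cfb-/- mice, but not all of the 11 are named. Msmo1, Dhcr7, Elovl6 and Fads1 were not called without this mouse either.

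In diabetic mice the smallest unadjusted p belonged to Insig1, Mvk and Srebf2. Insig1 was at 11.4 to 13.9 FPKM in WT diabetic mice and at 17.0 to 20.2 FPKM in Cfb-/- diabetic mice, a difference of 0.48 ± 0.13 (SE; limma, adjusted p = 1 over all genes). Mvk was at 3.39 to 4.14 FPKM and at 5.14 to 5.81 FPKM (0.47 ± 0.14, limma, adjusted p = 1). Srebf2 was at 11.0 to 15.6 FPKM and at 16.2 to 18.0 FPKM (0.27 ± 0.11, limma, adjusted p = 1), and without WT diabetic mouse 3 the difference was 0.15. In these 3 genes 4 of 4 Cfb-/- diabetic mice were above every WT diabetic mouse, and over the 38 members 4 were higher and 1, Acat2, was lower without overlap, against 1.86% higher and 0.885% lower of all tested genes. Insig1, Srebf1 and Msmo1 were higher at an unadjusted p under 0.05 in diabetic and in control mice. These are separate sets of animals, but the tests share the error estimate of the fit.

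Markers of fat cells differed between the groups of this comparison. Adipocyte markers other than Fabp4 (Adipoq, Plin1, Cidec, Lep, Retn, Cfd and Ucp1) summed to 7.11 to 31.2 FPKM in the 4 WT diabetic mice and to 13.2 FPKM in Cfb-/- control mouse 1, but to at most 0.386 FPKM in the other mice. Of the 8 adipocyte markers, 4 were at 0 in all Cfb-/- diabetic mice. Urothelium markers summed to 0.690 to 45.7 FPKM in WT diabetic mice and to 1.22 to 3.09 FPKM in Cfb-/- diabetic mice. With the adipocyte score as a covariate the median member went from 0.13 to -0.02 in the comparison of diabetic mice, and Msmo1 from 0.40 to -0.08. In control mice the median member went from 0.31 to 0.32. The score did not overlap between WT diabetic mice (-0.484 to 0.768) and Cfb-/- diabetic mice (-2.1 to -1.98). The covariate fit therefore cannot tell fat cell RNA from genotype in diabetic mice. The part of fat cell RNA in these differences was not tested.

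**Figure D4:**
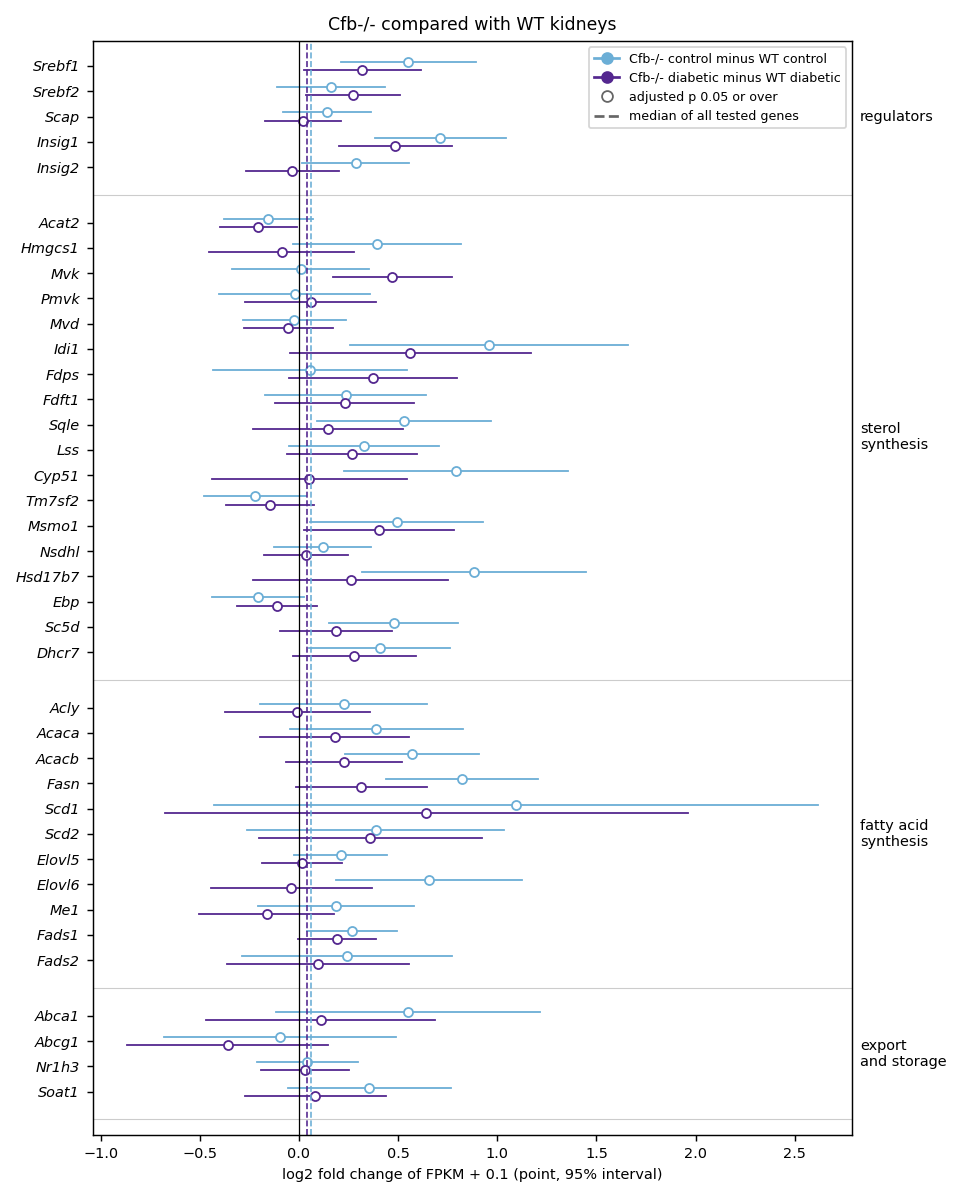
Log2 fold change of FPKM + 0.1 (x axis) between Cfb-/- and WT mice for the 38 members (rows), in control mice (light blue) and diabetic mice (purple), with 95% intervals from limma and the median of all tested genes as dashed lines. All points are open, as no adjusted p was under 0.05, and Insig1 lies to the right of 0 with its interval in both comparisons.

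Whether diabetes acted differently in the 2 genotypes was tested by the interaction, the fold change in Cfb-/- mice minus that in WT mice. No member was called, and 0.0% of all tested genes were called. At an unadjusted p under 0.05 there was 1 member above 0 and 1 below 0, against 2.86% and 2.92% of all tested genes. The smallest p belonged to Elovl6 (-0.70 ± 0.29, SE; limma, adjusted p = 0.779), Mvk (0.46 ± 0.21, adjusted p = 0.779) and Fasn (-0.51 ± 0.24, adjusted p = 0.779). The 95% interval for Mvd ran from -0.38 to 0.31 and that for Idi1 from -1.33 to 0.53, so that the error allows a difference of either sign for both. A call in Cfb-/- mice and not in WT mice, as for Hmgcs1, Cyp51 and Fasn, is therefore not shown to differ between genotypes.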

How the data were processed

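Kidney mRNA of 14 mice was measured by stranded, paired-end RNA-seq, with RNA of an integrity number of at least 7. The FPKM values per gene were computed by the authors and deposited as 1 file per mouse, and the submitters' processing notes name Trimmomatic, HISAT2, HTSeq, Cufflinks, DESeq and the build GRCm38.p6, without roles or versions. FPKM are not counts, so the study's DESeq2 test was not repeated and sequencing depth could not be given. The precision therefore rests on the spread between mice.

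Mice were grouped by sample title. Genes that reached 0.1 FPKM in 3 or more mice were tested on log2(FPKM + 0.1) with limma 3.58.1 in R 4.3.3, in 1 fit of all 4 groups, with Benjamini-Hochberg adjustment over all 14912 genes. Fold changes are on this log2(value + pseudocount) scale, which understates the change of low genes. The contrasts were diabetes in each genotype, genotype in diabetic and in control mice, and their interaction. The 2 diabetes contrasts compare different mice, whereas each genotype contrast shares its mice with the diabetes contrasts. All contrasts share the error estimate of the fit. The test was checked on simulated data. Tables and plots were made with Python 3.11.15, numpy 2.4.6, pandas 2.3.3, scipy 1.17.1 and matplotlib 3.10.9.

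The alternatives were a pseudocount of 1, no filter, a filter of 1 FPKM, median-ratio scaling, quantile normalization, a fit of the compared groups alone, a replicate block, the adipocyte score as a covariate, the criteria of the study (unadjusted p under 0.05 and a fold above 2 or below 0.5), and each mouse left out. Values in every mouse are given for the regulators, for the export and storage genes, for the 3 genes of each synthesis branch with the largest fold change by diabetes in WT mice, and for the 3 genes with the smallest unadjusted p in each genotype contrast and the interaction. Other pathway genes were named where called in both diabetes contrasts, at most 4 a list, and 1 gene that the rule names is not reported here. The genes and lists were chosen with earlier results of these data known.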

Additional observations from a re-analysis of the deposited data

Results flagged for a closer look

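In groups of 4 mice, a mouse was singled out where its gap to the nearest other mouse, divided by the range of the group, was above Dixon's 95% critical value for a group of that size. This was applied to the 38 members in both diabetic groups, 76 groups in all, of which chance gives about 1 in 20. Srebf2 in WT diabetic mouse 3 was at 10.96 FPKM, below the other WT diabetic mice (ratio 0.830). Msmo1 in Cfb-/- diabetic mouse 1 was at 24.03 FPKM, above the others (ratio 0.909). Sc5d in Cfb-/- diabetic mouse 3 was at 8.392 FPKM, above the others (ratio 0.904).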

How the results depend on the processing

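The number of members called for diabetes in WT mice, 18, became 28 with median-ratio scaling, 5 with the adipocyte score as a covariate and 3 with the criteria of the study, and ranged from 12 to 20 with 1 mouse left out. Over all tested genes the calls in WT mice, 5392 higher and 1487 lower, became 3391 and 3347 with median-ratio scaling. They became 2498 and 655 with the adipocyte score, and 2331 and 272 with the criteria of the study. In Cfb-/- mice the number of members called, 20, became 3 with the criteria of the study, which also ask for a fold above 2 or below 0.5, and ranged from 14 to 18 with 1 mouse left out. These criteria took the calls over all tested genes from 4083 higher and 955 lower to 1980 and 248. In control mice the number of members called for genotype, 0, ranged from 0 to 11, the latter without WT control mouse 1. In diabetic mice and for the interaction it was 0 under every alternative run. With the replicate block 17 members were called in WT and 17 in Cfb-/- mice, but the numbers do not pair the mice, as same-numbered mice correlated at -0.388 to 0.243 and 3 of 19 pairs were over 0.1. The other alternatives kept every count within 1.5 times.

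Some values turned sign, and not all of them were near 0 in the main fit. In WT mice, Scap came to -0.083 and Cyp51 to -0.24 with median-ratio scaling, and Dhcr7 to 0.027 with the adipocyte score. In Cfb-/- mice, median-ratio scaling gave -0.16 for Scap, -0.21 for Insig2 and -0.17 for Sqle, quantile normalization gave -0.019 for Scap, -0.11 for Insig2 and -0.014 for Soat1, and the adipocyte score gave -0.0040 for Sqle. Msmo1 between genotypes in diabetic mice came to -0.076 with the adipocyte score. With 1 mouse left out, the log2 fold change by diabetes in WT mice ranged from -0.37 to 0.0010 for Hmgcs1, -0.31 to 0.27 for Cyp51 and -0.26 to 1.45 for Scd1, and in Cfb-/- mice from -0.032 to 0.23 for Sqle and -0.29 to 0.78 for Scd1. The cause was not tested.

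Calls ended in WT mice without WT control 1 or 3 for Srebf1 (-0.41 to -0.40), without WT control 2 or 3 for Soat1 (0.44 to 0.55), without WT control 3 for Msmo1 (-0.57), without WT control 1 or WT diabetic 3 or 4 for Idi1 (-0.76 to -0.54), and without any of 4 mice for Insig2 (0.22 to 0.35; WT control 2 or 3, WT diabetic 2 or 4), Tm7sf2 (-0.35 to -0.22; WT control 2 or 3, WT diabetic 1 or 2) and Fads2 (-0.71 to -0.49; WT control 1 or 3, WT diabetic 1 or 4). In Cfb-/- mice they ended without Cfb-/- control 3 for Insig1 (-0.44), control 2 for Acacb (0.40), control 1 or 3 for Fads2 (-0.71 to -0.68), and in 5 or 6 of 7 cases for Acaca, Cyp51, Ebp, Elovl6 and Dhcr7.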
